A study of Mus musculus with 6 samples.

Results

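Genes that handle phosphate, pyrophosphate, bicarbonate and calcium for mineral formation were described in the inner enamel epithelium (IEE) of the mandibular first molar (MM1) at E18.5. The list held 10 genes, *Alpl*, *Enpp1*, *Phospho1*, *Phex*, *Slc20a1*, *Slc20a2*, *Car2*, *Slc4a4*, *Stim1* and *Orai1*, found by symbol among the 18152 genes of the expression table. All 10 were among the 14131 genes that passed the filter on low counts. The study asked how loss of epithelial *Kdf1* changes the molar germ, and compared 3 control with 3 knockout libraries. Control mice were *Kdf1 fl/fl*, although their sample labels read WT, and knockout mice were *K14-Cre;Kdf1 fl/fl*, labelled as a *Kdf1* deletion and called cKO here. Both lines were on a C57BL/6J background and carried the floxed *Kdf1* alleles. Cre under the keratin 14 promoter acts in epithelial cells, so that cells of the mesenchyme keep intact *Kdf1* alleles. The paper cites earlier work that found Kdf1 protein in the dental epithelium and not in the mesenchyme of early embryos. The IEE was cut from frozen sections by laser capture microdissection, and cells next to the captured area can be included. The labels name the libraries of a group as biological replicates.

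Mineral forms where phosphate and calcium meet and where pyrophosphate, which blocks crystal growth, is removed. Ectoenzymes make or split pyrophosphate, transporters of the SLC20 family carry phosphate into cells, carbonic anhydrases and bicarbonate transporters buffer the acid that crystal growth sets free, and STIM1 with ORAI1 lets calcium enter once the stores of the cell are empty. Ameloblasts, which arise from the IEE, and the stratum intermedium beside them are known to use these systems during enamel formation.

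Of the 10 genes, *Alpl* and *Slc4a4* fell in the cKO IEE, with a mean level in CPM (read counts scaled to an equal library size) 1.91-fold lower for *Alpl* and 2.18-fold lower for *Slc4a4*. The other 8 did not pass an adjusted p of 0.05. Each adjusted p below is from the quasi-likelihood test of edgeR, adjusted by Benjamini-Hochberg over all genes tested, unless another test is named. *Slc4a4* alone also met the criterion of the study, which adds a log2 fold change of 1 or more in size. That is 1 of 10, where 0.432% of all genes met it. By adjusted p alone 2 of 10 were lower, beside 0.368% of all genes. The median log2 fold change of the 10 genes was -0.46 (8 below 0, 2 above), and that of all genes tested was -0.004.

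The RefSeq promoter table (build GRCm38.p6) held a start for 8 of the 10 genes, with none for *Slc20a2* and *Car2*. The 2 genes that fell each had 2 annotated starts, while the expression table gives 1 value per *gene*, so that transcripts from the starts cannot be told apart here. The 250 bases before each start are shown, 5′ to 3′ on the strand of the *gene*, with every CG dinucleotide in capitals. For *Alpl* on the minus strand they span chr4:137796385-137796634 (start 1) and chr4:137766476-137766725 (start 2). For *Slc4a4* on the plus strand they span chr5:88887010-88887259 (start 1) and chr5:89027716-89027965 (start 2).
Alpl start 1: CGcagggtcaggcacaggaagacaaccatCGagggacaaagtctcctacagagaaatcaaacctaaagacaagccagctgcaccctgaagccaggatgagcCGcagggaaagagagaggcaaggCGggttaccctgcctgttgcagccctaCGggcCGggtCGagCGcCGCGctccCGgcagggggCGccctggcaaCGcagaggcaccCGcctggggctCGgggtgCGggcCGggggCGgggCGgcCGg
Alpl start 2: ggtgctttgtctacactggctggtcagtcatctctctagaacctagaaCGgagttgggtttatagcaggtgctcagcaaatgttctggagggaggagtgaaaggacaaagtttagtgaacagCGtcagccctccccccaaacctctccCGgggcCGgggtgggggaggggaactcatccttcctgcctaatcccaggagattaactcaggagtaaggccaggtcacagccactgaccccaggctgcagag
Slc4a4 start 1: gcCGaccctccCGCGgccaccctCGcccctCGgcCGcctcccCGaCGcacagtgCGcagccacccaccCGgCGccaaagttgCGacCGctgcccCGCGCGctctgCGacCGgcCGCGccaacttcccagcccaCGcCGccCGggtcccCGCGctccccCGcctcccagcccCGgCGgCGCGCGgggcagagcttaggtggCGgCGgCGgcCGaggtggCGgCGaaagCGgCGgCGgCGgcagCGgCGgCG
Slc4a4 start 2: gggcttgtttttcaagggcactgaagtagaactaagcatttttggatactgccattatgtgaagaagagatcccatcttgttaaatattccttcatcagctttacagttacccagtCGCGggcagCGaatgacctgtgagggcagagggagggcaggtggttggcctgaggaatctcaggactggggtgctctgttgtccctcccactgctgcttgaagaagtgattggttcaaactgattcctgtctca

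In both genes the upstream start lay in a stretch rich in CG and the downstream start did not. The *Alpl* windows held 20 and 4 CG dinucleotides and the *Slc4a4* windows 44 and 3, where the median of 32851 promoter windows of the same length was 6. *Slc20a1*, which also had 2 starts but did not pass, showed the same order with 29 and 5. The 3 short motifs below were searched on both strands, and matches are a description of letters only. AACCNGTT, which grainyhead-like factors of epithelia bind, was found before *Stim1* and before none of the other 7 genes, and 1.79% of all windows held it. TGTGGT, which RUNX factors bind, was found before *Enpp1* and before 1 of the 2 starts of *Slc20a1*, against 14.1% of all windows. TATAAA was found in the second *Alpl* window alone, against 12.4% of all windows.

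The libraries held 14713918 to 16675133 counts. The lowest count of any of the 10 genes was 125, for *Orai1* in cKO replicate 2, far above the 3 counts that a count of 0 allows. *Kdf1* itself, the targeted *gene*, had 836, 731 and 835 counts in the controls and 0, 1 and 0 in the cKO libraries (edgeR, adjusted p = 0.000288). Epithelial markers were present in every library, and 7 of the 8 listed had a lower value in the cKO, with 1 higher. *Epcam*, an adhesion molecule of epithelia, changed least of them, with a log2 fold change of -0.05 and an SE of 0.211. *Cdh1*, *Krt14* and *Krt5* were lower in every cKO library, and *Krt5* had a log2 fold change of -0.831 (adjusted p = 0.118). *Cdh1* and *Krt14* were each at -1.497 (adjusted p = 0.0498 and 0.0842). These 3 of the 8 passed when the replicate number was a block in edgeR, and in DESeq2, beside 9.87% and 12.6% of all genes. The adjusted p of *Krt14* was then 0.00685 with the block and 0.000969 in DESeq2. That of *Krt5* was 0.0484 and 0.0144. The summed TPM of 8 epithelial markers was 8852, 7242 and 10320 in control replicates 1, 2 and 3 and 4619, 4201 and 6607 in the cKO. The summed TPM of 8 ameloblast markers was 5949, 18350 and 36420 in the controls and 793, 989 and 2077 in the cKO. *Amelx* made up most of the control sums (4017, 15800 and 32210 TPM). *Sp6* made up most of the sums in cKO replicates 1 and 2 (581 and 558 TPM). All 6 ameloblast markers that passed the filter had a lower value in the cKO (median log2 fold change -3.46). None of them passed the adjusted p, while 6 passed when the replicate number was a block and 4 passed in DESeq2. Osteoclast markers summed to 49.7 to 102 TPM in the controls and 197 to 1272 in the cKO, with the highest value in replicate 1, and 7 of the 7 tested were higher. None of these passed either, while 4 passed with the block and 6 in DESeq2, beside 9.87% and 12.6% of all genes. All 8 immune and all 8 endothelial markers also had a higher value in the cKO, with median log2 fold changes of 1.41 and 0.93. None was past the adjusted p. With the block 1 of each list passed, and in DESeq2 4 immune and 2 endothelial markers did, beside the same shares of all genes. No marker of any list was at 0 in all libraries. In bulk tissue, fewer cells of a type and less RNA per cell cannot be told apart.

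**Figure D1:**
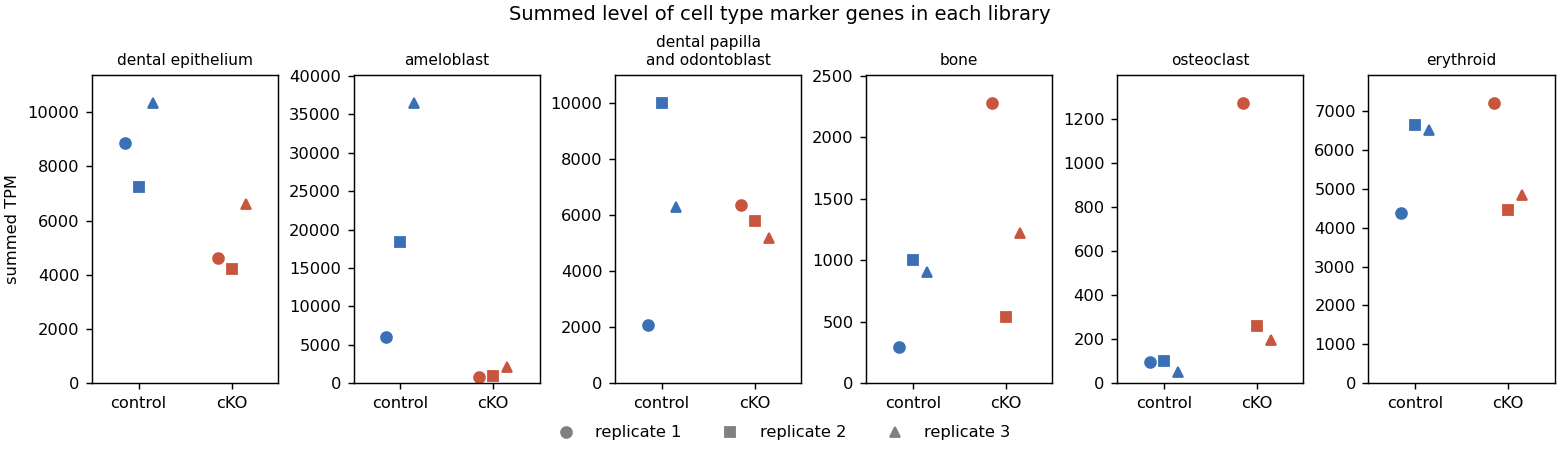
Summed TPM (vertical axis, from 0) of 6 lists of cell type markers in the control and cKO libraries, with a symbol per replicate number. Epithelial sums ran from 7242 to 10320 in the controls and from 4201 to 6607 in the cKO, and the bone list is shown without *Alpl*.

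Levels of different genes were compared in TPM, which accounts for transcript length. *Alpl* stood highest in the controls at 661 ± 78.1 TPM (SD, n = 3), above 98.9% of all genes in the table. *Slc20a2* came next at 240 ± 18.1 TPM, and neither the gap to *Alpl* nor that to *Stim1* (76.3 ± 11.5 TPM) was bridged by any control library. From *Stim1* down, each *gene* overlapped its neighbour, through *Car2* at 59.8 ± 29.0, *Slc20a1* at 59.5 ± 9.64, *Phospho1* at 38.8 ± 14.6, *Slc4a4* at 31.2 ± 4.84, *Enpp1* at 25.9 ± 7.41, *Phex* at 23.8 ± 17.7 and *Orai1* at 15.7 ± 1.52 TPM. In the cKO, *Alpl* and *Slc20a2* kept the top places at 363 ± 7.79 and 171 ± 29.3 TPM by their means, but in cKO replicate 2 *Car2* (156 TPM) was above *Slc20a2* (145 TPM). *Slc4a4* went from rank 7 to rank 9 of the 10 genes, at 14.98 ± 1.58 TPM, and *Car2* from rank 4 to rank 3, at 98.2 ± 49.9 TPM. Differences between the groups are given below in CPM after TMM scaling, with log2 fold changes of cKO over control.

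**Figure D2:**
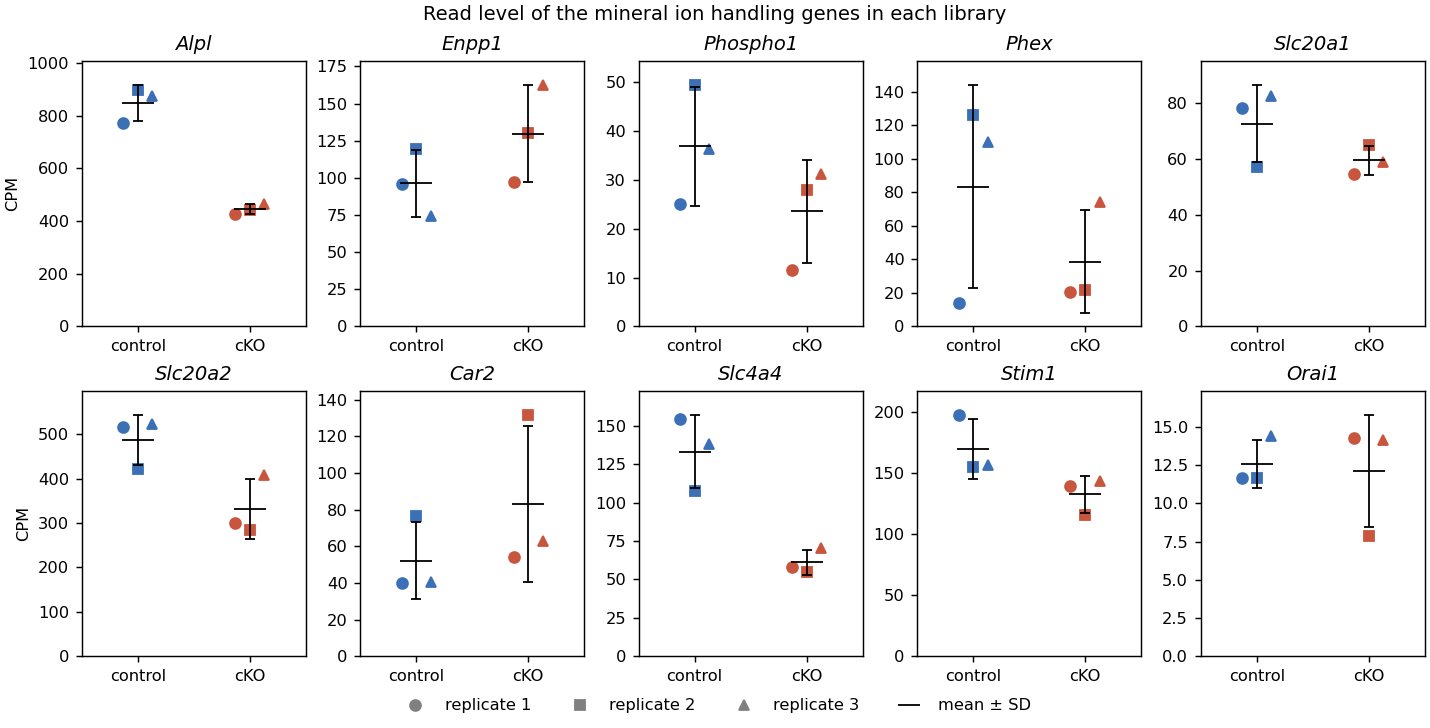
CPM (vertical axis, from 0) of each of the 10 genes in the 3 control and 3 cKO libraries, with a symbol per replicate number and black marks for mean ± SD. Control and cKO values in CPM do not overlap for *Alpl*, *Slc4a4*, *Slc20a2* and *Stim1*.

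*Alpl* encodes tissue-nonspecific alkaline phosphatase, the ectoenzyme that splits pyrophosphate into phosphate and is a marker of the stratum intermedium as well as of bone. Its level was 772, 898 and 876 CPM in control replicates 1, 2 and 3 and 426, 443 and 466 CPM in the cKO. Every cKO library was below every control, and the cKO values lay close together. The log2 fold change was -0.93 with an SE of 0.127 (95% interval -1.23 to -0.63, adjusted p = 0.0498). Within the replicate numbers the log2 ratio was -0.86, -1.02 and -0.91. The other markers of bone summed to 297, 999 and 904 TPM in the controls and 2275, 537 and 1218 TPM in the cKO, with overlap between the groups. Of the 5 tested, 3 had a higher and 2 a lower value in the cKO (median log2 fold change 1.05). *Runx2* (1.63, edgeR, adjusted p = 0.0674) and *Spp1* (3.87, adjusted p = 0.0656) were higher in every cKO library. None of the 5 passed, while 1 passed with the replicate block and 3 in DESeq2, beside 9.87% and 12.6% of all genes. The other stratum intermedium markers summed to 625 to 801 TPM in the controls and 474 to 1534 TPM in the cKO, a sum made up mostly of *Shh* (490 to 652 TPM in the controls and 406 to 1430 TPM in the cKO). Without *Shh*, a choice made after the values were seen, the remaining 4 summed to 149, 135 and 119 TPM in the controls and 102, 68.6 and 104 TPM in the cKO. Those sums were lower in every cKO library, as was *Notch1* among them, with a log2 fold change of -1.10 (edgeR, adjusted p = 0.0942, against 0.00695 under the block and 0.00856 by DESeq2). *Hes1*, *Sox2* and *Cyp2s1* overlapped between the groups, at -0.47, -0.067 and 0.052 on the log2 scale. Of the 5 markers with *Shh* included, 2 were higher and 3 lower in the cKO, so that the list as a whole did not fall as *Alpl* did. The part of either cell type in the difference of *Alpl* was not tested.

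*Slc4a4* encodes NBCe1, the sodium bicarbonate cotransporter that brings bicarbonate into ameloblasts through their basolateral membrane. It had 154, 107 and 138 CPM in the controls and 57.8, 54.7 and 70.5 CPM in the cKO. The groups did not overlap, and the highest cKO library was well under the lowest control. This was a log2 fold change of -1.13 with an SE of 0.171 (95% interval -1.53 to -0.73, adjusted p = 0.0498). Within the replicate numbers the log2 ratio was -1.42, -0.97 and -0.97. The summed epithelial markers given above were also lower in every cKO library than in every control. Of these markers 7 of 8 were lower, of which *Cdh1* passed, and *Krt14* and *Krt5* passed with the replicate block and in DESeq2. Their part in the difference of *Slc4a4* was not tested.

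The adjusted p of *Alpl* and of *Slc4a4* was the same value, shared by 70 genes, and lay just under the threshold. Leaving out cKO replicate 3 kept both calls (adjusted p = 0.0476 for each). For *Alpl* the adjusted p was 0.104 without cKO replicate 1 and without cKO replicate 2, and 0.162, 0.0856 and 0.210 without control replicates 1, 2 and 3. For *Slc4a4* it was 0.108 without cKO replicate 1, 0.109 without cKO replicate 2, and 0.162, 0.0639 and 0.210 without control replicates 1, 2 and 3. The log2 fold change stayed between -0.99 and -0.88 for *Alpl* and between -1.27 and -0.9996 for *Slc4a4* in these 6 fits.

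*Slc20a2* and *Slc20a1* encode the sodium-phosphate cotransporters PIT2 and PIT1, which bring phosphate into the cell. *Slc20a2* had 516, 423 and 524 CPM in the controls and 301, 283 and 409 CPM in the cKO. Again no cKO library reached the lowest control, although cKO replicate 3 came near it. The log2 fold change of -0.56 (SE 0.179, 95% interval -0.98 to -0.14) did not pass (adjusted p = 0.127). With DESeq2 it did (adjusted p = 0.0410), so that 3 of the 10 genes, all lower, were called there, beside 5.25% of all genes called lower by DESeq2. Without cKO replicate 3 it also passed in edgeR, with a log2 fold change of -0.72 (adjusted p = 0.0491).

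*Slc20a1* had 78.2, 56.9 and 82.7 CPM in the controls and 54.5, 65.1 and 58.8 CPM in the cKO. Control replicate 2 lay among the cKO values. Its log2 fold change was -0.29 with a 95% interval from -0.67 to 0.10 (adjusted p = 0.320), and it was -0.44 without control replicate 2 and -0.18 without control replicate 3. With this interval a difference as large as that of *Slc20a2* remains possible.

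*Stim1* encodes the calcium sensor of the endoplasmic reticulum and *Orai1* the channel in the plasma membrane that it opens. *Stim1* had 198, 154 and 156 CPM in the controls and 139, 115 and 144 CPM in the cKO. Every cKO library was lower, by a narrow margin. For *Stim1* the log2 fold change was -0.35 with a 95% interval from -0.70 to -0.01 (adjusted p = 0.193), and it was -0.22 without control replicate 1 and -0.23 without cKO replicate 2. In TPM the groups of *Stim1* overlapped, with control replicate 3 at 65.9 and cKO replicates 1 and 3 at 71.2 and 69.1 TPM. *Orai1*, the lowest of the 10 genes in the control IEE, had 11.7, 11.6 and 14.4 CPM in the controls and 14.3, 7.87 and 14.2 CPM in the cKO. Of the cKO libraries 2 came near the highest control and cKO replicate 2 was the lowest of all. For *Orai1* the log2 fold change was -0.05 with a 95% interval from -0.68 to 0.57 (adjusted p = 0.923), and its sign turned when reads were scaled by library size alone, in TPM, and without cKO replicate 2 or control replicate 3.

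In CPM, groups that did not overlap, with every cKO library lower, were seen for 4 of the 10 genes (*Alpl*, *Slc4a4*, *Slc20a2* and *Stim1*), and for 16.2% of all genes tested. None of the 10 was higher in every cKO library. Before adjustment the same 4 genes had p at or under 0.05, as did 24.5% of all genes.

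**Figure D3:**
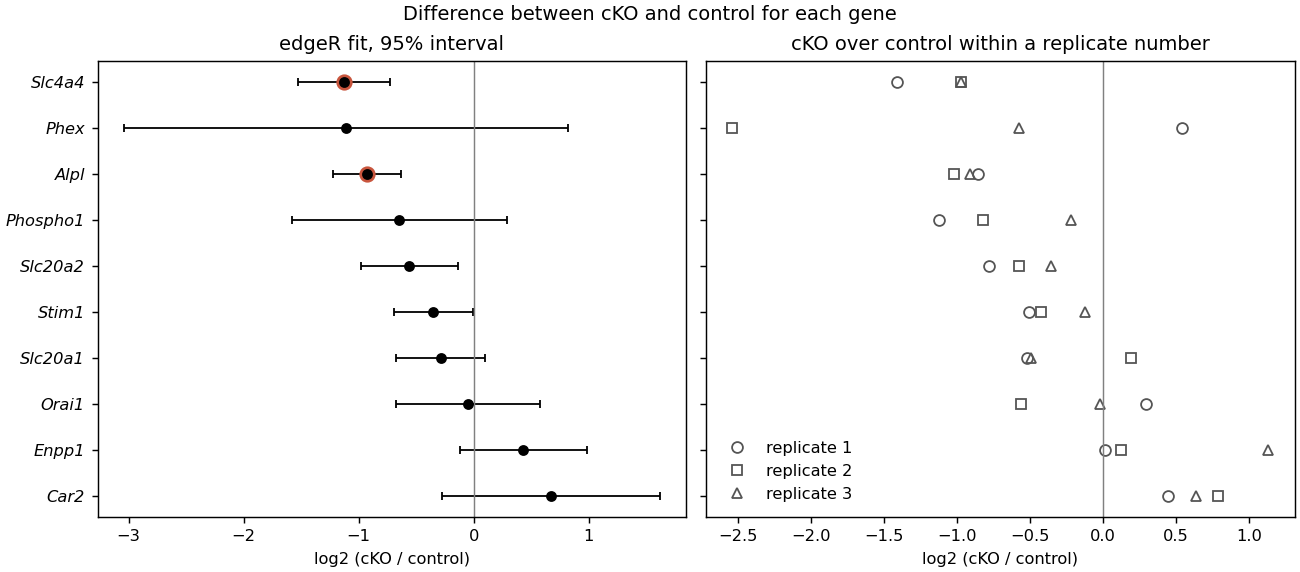
Left, log2 fold change of cKO over control for each *gene* with its 95% interval (edgeR), with red rings for adjusted p at most 0.05. Right, log2 ratio of the cKO to the control library of the same replicate number, all below 0 for *Slc4a4*, *Alpl*, *Phospho1*, *Slc20a2* and *Stim1* and all above 0 for *Enpp1* and *Car2*.

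*Car2*, a cytosolic carbonic anhydrase that makes bicarbonate and protons from carbon dioxide, had the highest log2 fold change of the 10 genes. It had 39.8, 76.4 and 40.3 CPM in the controls and 54.2, 132 and 62.9 CPM in the cKO. Replicate 2 was the highest library of its group in both genotypes, and the groups overlapped because of the control of that number. In the fit without pairs it had a log2 fold change of 0.67 with a 95% interval from -0.28 to 1.62 (adjusted p = 0.342), which became 0.19 without cKO replicate 2 and 1.04 without control replicate 2. Within the replicate numbers the log2 ratio was 0.44, 0.79 and 0.64, above 0 in 3 of 3. When edgeR was fitted with the replicate number as a block, *Car2* passed with a log2 fold change of 0.63 and an SE of 0.123 (adjusted p = 0.0294). Under the block 3 of the 10 genes were called, *Alpl*, *Slc4a4* and *Car2*, beside 9.87% of all genes. *Car2* is also known from osteoclasts and red cells. Osteoclast markers summed to 95.5, 102 and 49.7 TPM in the controls and 1272, 261 and 197 TPM in the cKO, highest in replicate 1, where *Car2* was lowest among the cKO. Erythroid markers summed to 4370, 6646 and 6519 TPM in the controls and 7198, 4461 and 4832 TPM in the cKO, where replicate 1 was again highest. In the controls both sums were highest in replicate 2, as *Car2* was. The part of either cell type in the values of *Car2* was not tested.

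*Enpp1* makes pyrophosphate from nucleotides outside the cell, against the action of *Alpl*. It had 96.1, 119 and 74.1 CPM in the controls and 97.1, 130 and 162 CPM in the cKO. The groups overlapped, and most of the difference came from replicate 3, where the log2 ratio was 1.13 against 0.02 and 0.13 in the others. Its log2 fold change was 0.43 with a 95% interval from -0.12 to 0.98 (adjusted p = 0.302), and it was 0.25 without cKO replicate 3 and 0.26 without control replicate 3.

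*Phospho1* encodes a phosphatase that frees phosphate from phosphocholine inside matrix vesicles. It had 25.1, 49.4 and 36.3 CPM in the controls and 11.5, 28.0 and 31.2 CPM in the cKO. Replicate 1 was lowest in both groups, and its control lay under 2 of the cKO libraries. It had a log2 fold change of -0.65 with a 95% interval from -1.58 to 0.29 (adjusted p = 0.353), and it was -0.31 without cKO replicate 1 and -0.38 without control replicate 2. *Phospho1* alone among the 10 genes had estimated counts that were not whole numbers.

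*Phex* encodes an endopeptidase of osteoblasts and odontoblasts that acts on phosphate balance. It had 13.9, 126 and 110 CPM in the controls and 20.3, 21.6 and 74.0 CPM in the cKO, the widest spread of the 10 genes. Control replicate 1 was the lowest library of all, below every cKO library. The log2 fold change was -1.11 with an SE of 0.818 and a 95% interval from -3.04 to 0.82 (adjusted p = 0.440), and it was -1.98 without cKO replicate 3 and -0.69 without control replicate 2. The markers of papilla and odontoblasts summed to 2077, 9986 and 6300 TPM in the controls and 6354, 5785 and 5187 TPM in the cKO (7 of 13 markers higher and 6 lower in the cKO). The lowest sum was in control replicate 1, as for *Phex*. Among the cKO libraries the sum was lowest in replicate 3, where *Phex* was highest. Its members differed in this. *Dspp* had 7.35, 32.3 and 181 TPM in cKO replicates 1, 2 and 3, and *Dmp1* had 29.7, 38.7 and 85.9 TPM. These, *Col1a1* and *Dcn* were highest in cKO replicate 3, and the other members in replicate 1 or 2. Of the 13 markers, *Twist1*, a transcription factor of mesenchyme, rose by 2.23 on the log2 scale (edgeR, adjusted p = 0.0498). *Dspp* of the same list went the other way, at -3.45 and lower in every cKO library (edgeR, adjusted p = 0.152). With the replicate block 7 of the 13 passed, *Dspp* among them, beside 9.87% of all genes. The part of these cells in the spread of *Phex* was not tested.

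For the 6 genes whose log2 CPM spanned more than 1 over the libraries, the tested genes with the most similar values were sought, by the root mean square difference of log2 CPM after centring each *gene* over the 6 libraries. The genes were chosen for this likeness, and each value is a description. *Slc4a4* had the closest match of all, *Cds1*, an enzyme of phospholipid synthesis, at a root mean square difference of 0.0381. *Cds1* had 104, 68.9 and 93.0 CPM in the controls and 39.5, 34.7 and 46.9 CPM in the cKO, the same order of libraries within the controls as *Slc4a4*. Next came *Lrrc8e*, a subunit of a volume-regulated anion channel, at 0.0562 and *Pkp1*, a desmosomal protein of stratified epithelia, at 0.0797. *Phex* was closest to *Dmp1* at 0.234 and *Bglap* at 0.273, matrix protein genes of odontoblasts and bone. *Dmp1* had 34.5, 343 and 250 CPM in the controls and 38.6, 54.8 and 127 CPM in the cKO, low in control replicate 1 as *Phex* was. The third *gene* for *Phex* was *Sgca* at 0.371, at 1.45 CPM or less in every library.

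**Figure D4:**
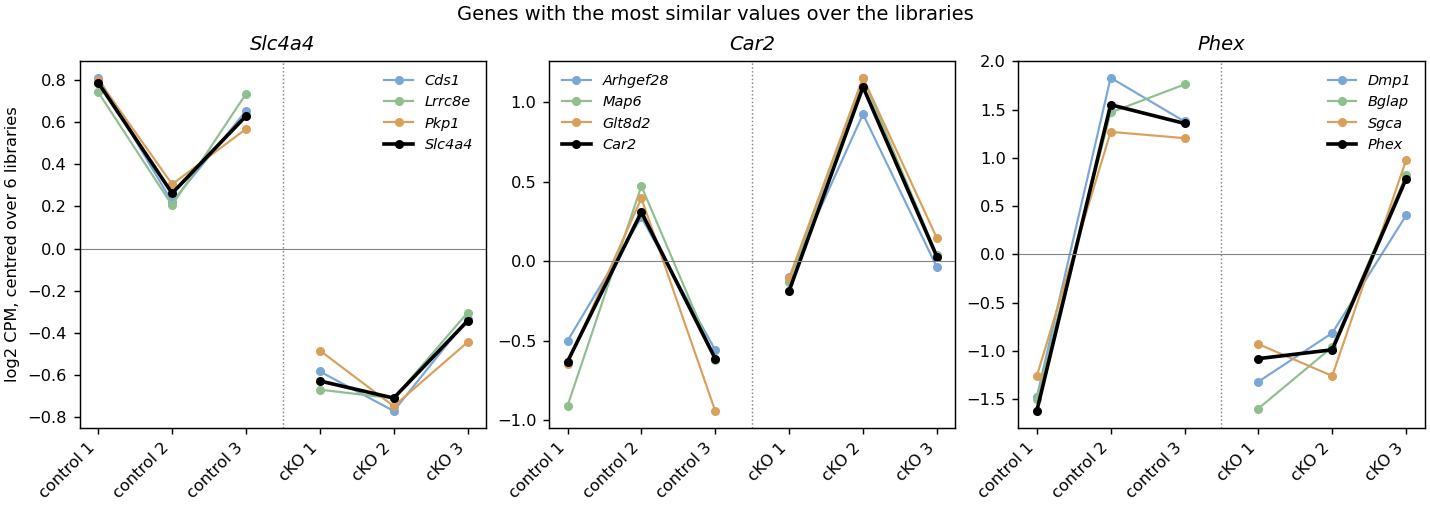
Log2 CPM of *Slc4a4*, *Car2* and *Phex* (black) and of the 3 genes closest to each, centred over the 6 libraries shown along the horizontal axis. *Slc4a4* and its 3 genes sit above 0 in every control and below 0 in every cKO, while *Phex*, *Dmp1*, *Bglap* and *Sgca* sit below 0 in control replicate 1.

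*Alpl* was closest to *Oxct2b* (0.0997), *Tmem254c* (0.106) and *Foxo1* (0.108), of which the former 2 have near-identical copies in the genome that can share reads. *Foxo1*, a transcription factor of the forkhead family, had 292, 294 and 351 CPM in the controls and 140, 159 and 175 CPM in the cKO, no overlap as with *Alpl*. *Car2* was closest to *Arhgef28* (0.103), *Map6* (0.121) and *Glt8d2* (0.142), which all had their highest value in cKO replicate 2. *Enpp1* was closest to *Nkain3* (0.0987), *Zfp90* (0.115) and *Tlcd4* (0.117), and *Phospho1* to *Lix1* (0.178), *Lingo3* (0.203) and *Tdrp* (0.206).

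Further genes of the same pathways were taken as a wider list of 100 symbols, of which 98 were in the table and 77 were tested. The 2 symbols not found, *Ankh* and *Atp6v0a3*, are other names of *Ank* and *Tcirg1*, which were. Of the 77 genes 40 had a higher and 37 a lower value in the cKO, with a median log2 fold change of 0.02. Only *Car13* passed the criterion, 1 of 77 beside the 0.432% of all genes given above, and 16 of 77 had an adjusted p of at most 0.05 with the replicate block, beside its 9.87%. Before adjustment 13 higher and 15 lower genes had p at or under 0.05, in a table where 24.5% of all genes did.

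Of 13 tested genes of phosphate and pyrophosphate handling none passed, with 3 higher and 3 lower by unadjusted p, beside the 24.5% of all genes in either direction. *Fam20c*, the kinase that phosphorylates enamel and bone matrix proteins, had 58.7, 78.0 and 120 CPM in the controls and 30.9, 24.8 and 47.7 CPM in the cKO, without overlap (log2 fold change -1.31, adjusted p = 0.0842). With the replicate block it passed (edgeR, adjusted p = 0.00964). *Ppa1*, a cytosolic pyrophosphatase, was at a log2 fold change of -0.73 (adjusted p = 0.122), and *Enpp3*, a relative of *Enpp1*, at 1.35 (adjusted p = 0.142). The genes with the highest TPM in this class were *Enpp2*, the lysophospholipase autotaxin, at a log2 fold change of -0.44 (adjusted p = 0.227), and *Ank*, which lets pyrophosphate out of the cell, at -0.48 (adjusted p = 0.287).

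Among 11 tested carbonic anhydrases other than *Car2*, 9 had a higher and 2 a lower value in the cKO (median log2 fold change 0.83). *Car13*, another cytosolic carbonic anhydrase, had 56.8, 39.6 and 73.1 CPM in the controls and 16.2, 17.6 and 19.2 CPM in the cKO. It fell by 1.68 on the log2 scale with an SE of 0.229 (adjusted p = 0.0498), in the opposite direction to the value of *Car2*. *Car11*, a member of the family without catalytic activity, had a log2 fold change of 1.55 at a low level, 1.52 to 1.76 CPM in the controls and 4.56 to 5.22 CPM in the cKO (adjusted p = 0.0556, and 0.0267 with the replicate block in edgeR). *Car5b*, a mitochondrial form, stood at 1.85 with 2 to 23 counts per library (adjusted p = 0.105). *Car12*, a membrane form and the family member with the highest TPM apart from *Car2*, had 141, 103 and 75.5 CPM in the controls and 170, 138 and 251 CPM in the cKO (log2 fold change 0.81, adjusted p = 0.151). *Car3* was at 0.08 (adjusted p = 0.899).

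Of 22 tested genes of bicarbonate, chloride and proton transport none passed. *Slc4a2*, the anion exchanger AE2 that trades chloride for bicarbonate, was close to the threshold. It had 235, 194 and 243 CPM in the controls and 139, 99.6 and 123 CPM in the cKO, without overlap (log2 fold change -0.89, SE 0.159, adjusted p = 0.0591). With the replicate block it passed (edgeR, adjusted p = 0.0104). *Tcirg1*, a subunit of the proton pump abundant in osteoclasts, had 19.8, 27.4 and 18.1 CPM in the controls and 103, 58.7 and 36.7 CPM in the cKO, the order of the osteoclast markers in the cKO (log2 fold change 1.60, adjusted p = 0.0777, and 0.0332 with the block). *Slc4a7*, another sodium bicarbonate cotransporter, was at 0.73 (adjusted p = 0.114), and *Atp6v1b2*, a proton pump subunit, at 0.01 (adjusted p = 0.987).

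Of 31 tested genes of calcium and magnesium transport none passed, with 9 lower and 3 higher by unadjusted p, beside the 24.5% of all genes in either direction. *Itpr3*, a calcium release channel of the endoplasmic reticulum, had 502, 410 and 644 CPM in the controls and 287, 254 and 271 CPM in the cKO, without overlap (log2 fold change -0.94, adjusted p = 0.0637, and 0.0210 with the replicate block in edgeR). *Cnnm4*, a magnesium transporter, was at -0.62 (adjusted p = 0.0663, and 0.0259 with the block), and *Atp2a2*, the pump SERCA2 that fills the calcium stores, at -0.67 (adjusted p = 0.0730, and 0.0350 with the block). *Stim1* above, which senses these stores, had a smaller log2 fold change of -0.35. *Calb1*, a cytosolic calcium-binding protein of ameloblasts, had 514, 741 and 2435 CPM in the controls and 27.3, 102 and 365 CPM in the cKO (log2 fold change -2.90, SE 0.994, adjusted p = 0.142, and 0.00903 with the block). Replicate 3 was highest in both groups for *Calb1*, as it was for the sum of the ameloblast markers. *Calr*, a calcium-binding chaperone, was at -0.77 (adjusted p = 0.150).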

How the data were processed

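RNA-seq libraries were made from laser-captured IEE of the MM1 at E18.5, 3 per group, grouped by their labels. The authors deposited 1 table of 18152 genes with estimated counts, the unnormalised numbers of reads per *gene* (10.9% to 11.5% of values in a library were not whole), with TPM, scaled by the authors for length and library size, with FPKM and with mean values per group. The deposited TPM were used for levels between genes and for 2 alternatives, and FPKM and group means were not used. The submitters' processing notes name BWA 0.7.12, Picard 2.6.0 and StringTie without their roles, and the genome build, counting settings and strandedness were not given in the sources used here.

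Estimated counts were rounded and analysed in R 4.3.3 with edgeR 4.0.16 (filterByExpr, 14131 genes kept; TMM factors 0.950 to 1.03; robust quasi-likelihood fit over all genes; two-sided F-test; Benjamini-Hochberg adjustment). The SE is the absolute log2 fold change divided by the square root of F. A count of 0 allows 3 counts, 0.182 to 0.198 CPM; this covers counting error only, since PCR copies are not independent molecules. The criterion asked for a log2 fold change of 1 or more in size with adjusted p at or under 0.05. Alternatives used DESeq2 1.42.0 and limma 3.58.1. The procedure was tested on simulated counts with 200 changed genes.

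Between libraries of a group the counts varied 34.3 to 74.1 times more than by sampling, so that none was present in duplicate. The deviations of same-numbered libraries from their group means correlated at 0.135, 0.324 and 0.499 across genes, and those of control replicate 2 and cKO replicate 1 at 0.144, above the lowest pair. The pair of replicate 1 was thus not set apart from a mismatched pair. Whether the numbers mark pairs is not settled by these data, and the labels do not say that they mark a shared litter. The main fit used no pairs, and fits with the replicate block are given beside it as alternatives.

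The genes named are the 10 genes, *Kdf1*, in each class of the wider list the 3 tested genes with the lowest unadjusted p and the 2 with the highest TPM, and the 3 genes nearest to each of the 10 whose log2 CPM (prior count 2) spanned more than 1. Other genes named are of the marker lists. The 10 genes, the lists and the tests were chosen with earlier results of these data known.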

Additional observations from a re-analysis of the deposited data

How the results depend on the processing

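The median log2 fold change of the 10 genes stayed below 0 in each alternative, between -0.56 (without cKO replicate 3) and -0.34 (without cKO replicate 1) when a library was left out. The count of the 10 genes past the criterion, 1 in the report, was 0 with limma-voom, DESeq2 size factors in edgeR, upper quartile scaling, library size alone, at least 10 counts in every library, and limma on log2(TPM + 1) or log2(TPM + 0.1), and 2 by adjusted p alone. Leaving out 1 library gave 0 to 1. The fold changes of *Alpl* and *Slc4a4* moved little over these settings, and their adjusted p lay between 3.37e-10 and 0.0624 for *Alpl* and between 2.29e-06 and 0.0624 for *Slc4a4* with all libraries in the fit. Counting the fits without 1 library, the adjusted p was above 0.05 in 10 of 16 alternatives for *Alpl* and 12 for *Slc4a4*. For all genes the criterion was met by 61 genes in the report, by 980 with DESeq2, 860 with the replicate block, 103 with no filter on low counts, 52 with limma on log2(TPM + 0.1), 16 with limma on log2(TPM + 1), 9 with library size alone, 7 with DESeq2 size factors in edgeR, 6 with limma-voom and 6 with the stricter filter, and by 1 to 465 when a library was left out. The count of the wider list, 1 in the report, was 8 with DESeq2, 7 with the replicate block, 14 by unadjusted p with the fold change, and 0 with limma-voom, DESeq2 size factors in edgeR, library size alone, at least 10 counts in every library and limma on log2(TPM + 1), and 0 to 5 when a library was left out. The cause of these shifts was not tested. *Orai1* reversed with library size alone (log2 fold change 0.0074, adjusted p = 0.990), limma on log2(TPM + 1) (0.036, adjusted p = 0.9501) and limma on log2(TPM + 0.1) (0.034, adjusted p = 0.956), and ranged from -0.17 to 0.21 when a library was left out. With the replicate block the median of the 10 genes was -0.46, and among the 10 genes it changed the call of *Car2* alone. At 3 libraries a group, the spread of *Phex* leaves a 95% interval from -3.04 to 0.82.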
